A study of Mus musculus with 48 samples.

Results

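Medium spiny neurons are the principal output neurons of the striatum, and 7 genes that they express strongly were followed in dissected mouse cortex: Drd1, Drd2, Adora2a, Ppp1r1b, Pde10a, Rgs9 and Rasd2. They were picked by symbol, and all 7 were found among the 24444 genes of the table. Cortical RNA of male mice was sequenced in 8 groups of 6 mice, wild-type (WT) and heterozygous Chd8 V986*/+ mice on embryonic day 14.5 (E14.5) or when 1, 6 or 12 months old. The mutant allele was made with CRISPR/Cas9 and carries tandem stop codons, inserted at V986 and E987 of Chd8, a chromatin remodeler linked to autism. All mice were C57BL/6J, WT mice were littermates, and each sample was the cortex of 1 hemisphere of 1 mouse, without sorting of cells. Expression is given as variance-stabilized (VST) values on a log2 scale, where 1 unit is about 2-fold for genes well above the floor of the scale. The scale is not corrected for gene length, and levels are compared only within a gene. The read depth of the libraries is not in the table, and the measure of error used here is the spread between the 6 mice of a group.

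Medium spiny neurons release GABA and receive dopamine from the midbrain and glutamate from cortex and thalamus. Neurons of the direct pathway carry the dopamine D1 receptor, which raises cAMP, and neurons of the indirect pathway carry the dopamine D2 receptor, which lowers it, together with the adenosine receptor of Adora2a, which raises it. Both kinds hold the same machinery that reads or ends these signals, and some of these genes are also expressed at lower levels in cortical neurons.

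In the mm9 annotation, Drd1 (named Drd1a there) lies at chr13:54146555-54151027, minus strand, Drd2 at chr9:49148732-49216282, plus strand, and Adora2a at chr10:74779688-74797533, plus strand. Ppp1r1b lies at chr11:98209718-98219110, plus strand, and Rgs9 at chr11:109086669-109159443, minus strand, also on chromosome 11. Pde10a lies at chr17:8718237-9179513, plus strand, and Rasd2 at chr8:77737843-77748012, plus strand. The 7 genes therefore lie on 6 chromosomes. Because the 7 genes varied together between postnatal mice, the 250 bases upstream of their starts were read from the RefSeq promoter table (GRCm38.p6), which holds 5 of the 7 genes with 7 starts and has no entry for Adora2a and Ppp1r1b. The windows of both dopamine receptor genes and of Rgs9 are printed along the strand of the gene, the receptors since they mark different neurons and Rgs9 since its window held the most kinds of motif. They are chr13:54055659-54055908 (minus strand) for Drd1, chr9:49340153-49340402 (plus strand) for Drd2 and chr11:109298182-109298431 (minus strand) for Rgs9, and capitals mark the motifs. Drd1 has another start, with the window chr13:54054781-54055030, which holds a GC box.
Drd1: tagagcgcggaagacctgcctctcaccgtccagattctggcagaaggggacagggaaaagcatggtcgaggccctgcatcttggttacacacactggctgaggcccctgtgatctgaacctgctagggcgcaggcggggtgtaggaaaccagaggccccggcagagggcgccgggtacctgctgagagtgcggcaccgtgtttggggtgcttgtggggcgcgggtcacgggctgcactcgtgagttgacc
Drd2: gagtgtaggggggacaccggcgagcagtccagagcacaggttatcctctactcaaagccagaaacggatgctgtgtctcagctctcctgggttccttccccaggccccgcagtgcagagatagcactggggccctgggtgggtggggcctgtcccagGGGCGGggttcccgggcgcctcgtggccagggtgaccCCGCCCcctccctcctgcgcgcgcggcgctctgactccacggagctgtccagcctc
Rgs9: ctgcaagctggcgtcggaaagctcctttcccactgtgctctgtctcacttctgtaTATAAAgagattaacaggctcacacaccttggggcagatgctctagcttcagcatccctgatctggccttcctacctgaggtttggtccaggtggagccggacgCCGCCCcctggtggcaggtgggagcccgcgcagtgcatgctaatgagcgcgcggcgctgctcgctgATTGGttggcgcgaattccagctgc

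Of the motifs searched on both strands, the GC box GGGCGG was found in 4 of the 7 windows and in 32.7% of all 32851 windows of this length. The CCAAT box CCAAT was found in 2 of the 7 windows and in 33.8% of all 32851 windows of this length, and the TATA box TATAAA in 1 and in 12.4%. The letters TGACG, the core of the cAMP response element, were in 0 of the 7 windows and in 17.8% of all windows. No motif was shared by all windows of the members. The share of G and C in the printed windows was 64% for Drd1, 68.8% for Drd2 and 59.6% for Rgs9, and the median of all windows was 52.4%.

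Chd8 itself was lower in the mutant groups, which their labels give as heterozygous. Its VST value was 11.55 to 11.87 in WT and 10.94 to 11.11 in Chd8 V986*/+ mice at 1 month, 11.72 to 11.78 and 10.97 to 11.17 at 6 months, and 11.36 to 11.80 and 11.09 to 11.17 at 12 months. At E14.5, it was 12.33 to 12.66 in WT and 11.60 to 12.03 in mutant embryos. The genotypes did not overlap at any of the 4 ages. The difference of HET minus WT was -0.63, -0.67, -0.64 and -0.54 (log2) at E14.5, 1, 6 and 12 months, with limma adjusted p values of 0.0261, 3.01e-06, 1.07e-07 and 0.00261, each over all genes tested at that age.

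Of the receptors, Drd1 encodes the dopamine D1 receptor of direct pathway neurons and, at lower levels, of some cortical neurons. At E14.5, the lowest, median and highest Drd1 values were 6.17, 7.16 and 7.64 in WT and 6.88, 7.34 and 7.86 in Chd8 V986*/+ embryos. At 1 month, they were 8.69, 9.64 and 10.38 in WT and 9.60, 10.08 and 10.32 in mutant mice. At 6 months, Drd1 was at 9.25, 10.08 and 10.59 in WT and 9.44, 10.01 and 10.36 in mutant mice, and at 12 months at 10.10, 10.33 and 10.68 and 9.41, 10.23 and 10.42. All postnatal mice were above all embryos, and WT and mutant mice overlapped at each age. The lowest postnatal value belonged to WT replicate 3 of 1 month, and the narrowest postnatal group was WT at 12 months, with an SD of 0.22.

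Drd2, the dopamine D2 receptor of indirect pathway neurons, had the largest SD of the 7 genes in 5 of the 6 postnatal groups, and Adora2a had it in mutant mice of 1 month. Its lowest, median and highest values in WT mice of 1 month were 6.63, 7.99 and 9.19, a 5.89-fold range between littermate controls of 1 age on the VST scale. The mutant mice of 1 month were at 8.02, 8.69 and 9.11. All 6 of them lay inside the WT range and above the WT mean of 7.97. At 6 months, Drd2 was at 7.37, 8.71 and 9.33 in WT and 7.97, 8.59 and 8.99 in mutant mice. At 12 months, it was at 8.59, 9.01 and 9.40 in WT and 8.003, 8.88 and 9.19 in mutant mice, of which replicates 3 and 5 were below all WT mice. The embryos, at 5.75, 6.36 and 6.83 in WT and 6.02, 6.28 and 6.46 in mutants, reached the lowest WT mouse of 1 month and no other postnatal mouse.

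Adora2a encodes the adenosine receptor that indirect pathway neurons carry together with Drd2. Its lowest, median and highest values were 7.06, 7.54 and 7.85 in WT embryos. They were 7.68, 9.05 and 10.08 in WT mice of 1 month, in those of 6 months 8.26, 9.59 and 9.97 and in those of 12 months 9.56, 9.82 and 10.04. In Chd8 V986*/+ mice, they were 7.22, 7.74 and 7.99, 8.89, 9.59 and 9.92, 8.70, 9.28 and 9.75 and 8.86, 9.67 and 10.05 at the same ages. As with Drd2, the lowest postnatal mouse was WT replicate 3 of 1 month, and it lay within the range of the embryos.

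Of the signalling genes, Ppp1r1b encodes DARPP-32, a phosphatase inhibitor that is switched on by protein kinase A in both kinds of medium spiny neuron. Its lowest, median and highest values were 7.25, 8.27 and 8.96 in WT embryos. They were 11.33, 12.10 and 12.81 in WT mice of 1 month, in those of 6 months 11.68, 12.55 and 12.96 and in those of 12 months 12.57, 12.67 and 12.93. In mutant mice, they were 8.25, 8.54 and 9.05, 12.12, 12.54 and 12.81, 11.95, 12.36 and 12.70 and 11.82, 12.65 and 12.83. Embryos and postnatal mice were far apart, and the genotypes overlapped at each age.

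Pde10a encodes a phosphodiesterase that degrades cAMP and cGMP, Rgs9 a regulator that shortens G protein signals of dopamine and opioid receptors, and Rasd2 (Rhes) a small GTPase enriched in striatum. Pde10a ranged from 10.96 to 11.64 in the 12 embryos and from 11.73 to 13.06 in the 36 postnatal mice. Rgs9 ranged from 8.10 to 8.90 in embryos and from 9.54 to 11.39 in postnatal mice. Rasd2 ranged from 5.06 to 6.43 in embryos and from 11.06 to 12.34 in postnatal mice. Every postnatal mouse was above every embryo for these 3 genes, as for Drd1 and Ppp1r1b. Such a separation was common, found in 27.7% of 17311 genes above the floor, with 26.8% separated in the other direction. For all 3, the lowest postnatal mouse was again WT replicate 3 of 1 month.

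**Figure D1:**
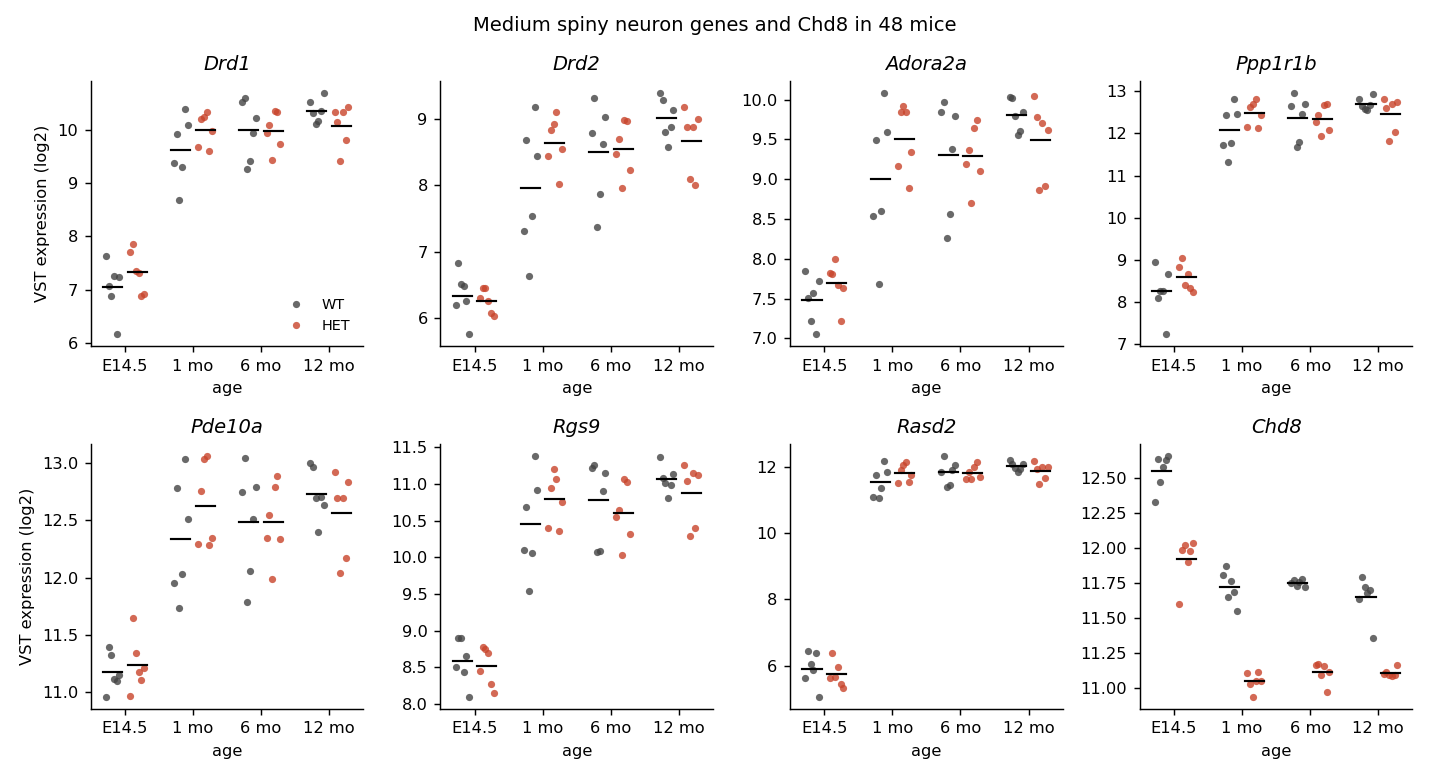
VST expression (log2) of the 7 medium spiny neuron genes and of Chd8 in each of 48 mice, by age, with WT in grey and Chd8 V986*/+ (HET) in red and a black line at the mean of each group of 6. The members rise after E14.5 and the genotypes overlap at every age, whereas Chd8 separates the genotypes at all 4 ages; in WT mice of 1 month, Drd2 runs from 6.63 to 9.19.

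All 7 genes were higher at 1 month than at E14.5 in both genotypes. The increase was largest for Rasd2 and Ppp1r1b and smallest for Pde10a. In WT mice, Rasd2 rose by 5.65 ± 0.20 (log2, SE), Ppp1r1b by 3.84 ± 0.25, Drd1 by 2.58 ± 0.25 and Rgs9 by 1.87 ± 0.24. Drd2, Adora2a and Pde10a rose by 1.63 ± 0.33, 1.51 ± 0.31 and 1.17 ± 0.19. In Chd8 V986*/+ mice, the increase was 6.09 ± 0.15 for Rasd2, 3.89 ± 0.17 for Ppp1r1b, 2.39 ± 0.20 for Drd2 and 1.38 ± 0.17 for Pde10a. The limma adjusted p was at most 7.29e-05 in WT and 2.03e-08 in mutant mice. A gene was called where this p, adjusted over all genes tested, was below 0.1. Most of the transcriptome changed in this step: 85.5% of the 17341 genes tested were called in WT and 86.5% of 17291 in mutant mice. The calls toward higher values were 43.9% and 44.5% of genes, against 7 of 7 members in each genotype. The median change of the members was +1.87 in WT and +2.39 in mutant mice, and that of all genes tested was +0.03 and +0.04. Quantile normalization moved the median of all genes by -0.13 in both genotypes, which is small beside the increase of each member. Lists described below moved in this step too. In WT mice, 6 of 6 oligodendrocyte markers were called higher, with a median of +7.90. All 6 tested markers of midbrain, hindbrain and spinal cord were called lower, with a median of -3.60. Of 8 striatal transcription factors, 6 were called lower and 1 higher, with a median of -2.09. The medians of these lists in mutant mice were +7.64, -2.96 and -1.96. In these bulk samples, more cells of a type and more RNA per cell cannot be told apart, nor can fewer cells and less RNA per cell.

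After 1 month, neither the step to 6 months nor that from 6 to 12 months passed the test for any member. In WT mice, 7 of 7 members had a higher mean at 6 than at 1 month, with a median of +0.30 and a range of +0.15 to +0.54. Without WT replicate 3 of 1 month, the median of this step was +0.15. They again had higher means at 12 than at 6 months, with a median of +0.33 and a range of +0.18 to +0.52. In Chd8 V986*/+ mice, the medians of both steps were -0.12 and +0.10. By limma, 0 of 7 members were called in each of these 4 steps and 0 had an unadjusted p below 0.05. The genes called were 14.8% of all genes in WT and 21.8% in mutant mice for 6 against 1 month, and 0.0115% and 1.88% for 12 against 6 months. In both WT steps, 6 of 6 basal forebrain cholinergic markers and 12 of 13 other striatum-enriched genes also had higher means. Of 9 cortical excitatory markers, 4 had a lower mean in the first WT step and 9 in the next. When the 8 group means of each gene were put in order, both E14.5 groups came first in all 7 members, WT at 1 month was the lowest postnatal group in 7 of 7 and WT at 12 months the highest in 7 of 7. Of the 49 gaps between neighbours in these orders, 7 were larger than the larger SD of the 2 groups, 1 in each gene, and all lay between the embryos and the WT mice of 1 month. Sorting by mean makes gaps between neighbours small, and groups farther apart in the order did differ more: WT at 1 and at 12 months were apart by more than the larger SD in 4 of 7 members, Drd1, Drd2, Ppp1r1b and Rasd2. These groups were the lowest and the highest postnatal groups of that order, and the share of all genes this far apart is not given here.

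The change from 1 to 12 months was tested as well, a comparison added after the other results had been seen. In WT mice, it joins the groups already seen as lowest and highest after birth in 7 of 7 members. Its p values do not allow for this choice. Because the members vary together, a count of called members is not a count of separate observations. In WT mice, 5 of 7 members were called. Drd2 rose by 1.053 ± 0.33 (log2, SE; limma adjusted p = 0.0312), Adora2a by 0.81 ± 0.31 (0.0726) and Drd1 by 0.73 ± 0.25 (0.0503). Rgs9 rose by 0.62 ± 0.24 (0.084) and Ppp1r1b by 0.61 ± 0.25 (0.0959). Rasd2 (+0.47, adjusted p = 0.117) and Pde10a (+0.39, 0.18) did not pass. Of all genes, 22.1% were called in this comparison. In exact permutation tests of 6 against 6 WT mice, 1 for each of the 7 members, p was 0.0195 to 0.121, without adjustment. The calls depend on single mice. Leaving out 1 of the 12 mice left between 1 and 7 members called, and without replicate 3 of 1 month 1 was called, with a median of +0.46 in place of +0.62. In Chd8 V986*/+ mice, 0 of 7 were called by limma and 0 had an unadjusted p below 0.05, with a median of +0.03, while 34.3% of all genes were called. The difference between the genotypes in this change is the contrast of the genotype difference at 12 months and 1 month, in which no member was called.

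The genotypes were compared at each age to see whether the heterozygous stop allele moved these genes. No member was called at any age. At E14.5, 4 members had a higher and 3 a lower mean in Chd8 V986*/+ embryos, with a median difference of +0.07. At 1 month, all 7 had a higher mean in mutant mice, with a median of +0.38, and at 12 months all 7 had a lower mean, with a median of -0.25. At 6 months, 1 had a higher and 6 a lower mean, with a median of -0.01. Because the 7 genes vary together between mice, a shared direction of 7 genes is not 7 separate observations. At 1 month, 1 mouse carried much of the difference. Without WT replicate 3, the median difference was +0.19, that of Drd2 +0.42, of Adora2a +0.24, of Ppp1r1b +0.23 and of Drd1 +0.19. At 12 months, 2 mutant mice, replicates 3 and 5, were below all WT mice in all 7 members, and no other mutant mouse was. Their mean deviations from their group were -0.57 and -0.43, so the lower means at this age rest largely on these 2 mice. The difference without both of them is not given here. Of the other lists, none of which held a called gene, some were mostly higher in mutant mice of 1 month and mostly lower in those of 12 months, and others were not. The genes with a higher mean at 1 and at 12 months were 12 and 1 of 13 other striatum-enriched genes, 10 and 0 of 10 striatal cAMP and G protein signalling genes, 4 and 1 of 4 indirect and 4 and 2 of 7 direct pathway genes and 7 and 5 of 8 striatal transcription factors. They were 6 and 6 of 9 cortical excitatory markers, 5 and 0 of 5 dentate gyrus markers, 5 and 1 of 5 choroid plexus markers and 0 and 3 of 5 thalamus markers. In the embryos, 8 of 9 cortical excitatory markers had a higher mean in mutants, with a median of +0.36, and 8 of 8 markers of midbrain, hindbrain and spinal cord a lower one, with a median of -1.34. These directions were not tested as lists. Over all genes, the median difference was 0.001, -0.0029, -0.00088 and 0.0046 at E14.5, 1, 6 and 12 months.

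At 1 month, the largest difference was that of Drd2, +0.68 (95% confidence interval -0.02 to 1.38), with a limma p of 0.0548 and an adjusted p of 0.574. It was +0.50 (95% confidence interval -0.16 to 1.16) for Adora2a, +0.39 for Ppp1r1b and +0.38 for Drd1. The remaining members lay between +0.27 for Rasd2 and +0.34 for Rgs9. At 12 months, Drd2 differed by -0.34 (95% confidence interval -0.75 to 0.07), with an adjusted p of 0.495 by limma. Drd1 and Adora2a differed by -0.28 and -0.32 at that age, and the smallest difference was -0.15 for Rasd2. All these intervals include 0. They also include differences well away from 0, so a change of such a size could have been missed with 6 mice per group. By limma, 0 of 7 members were called at each age and 0 had an unadjusted p below 0.05. The share of all genes called was 0.00593% in embryos. It was 0.139%, 0.0927% and 0.0463% in mice of 1, 6 and 12 months. These shares depend on the fit: with all 48 samples in 1 fit, 93 genes were called in embryos, 37 in mice of 1 month and 520 in those of 12 months, in place of 1, 24 and 8, and still 0 of 7 members. Exact two-sided permutation tests of 6 against 6 mice, 28 in all, gave p values from 0.139 (Drd2 at 1 month) to 0.978 (Drd1 at 6 months), where the smallest possible is 0.00216. WT and mutant mice overlapped in all 28.

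**Figure D2:**
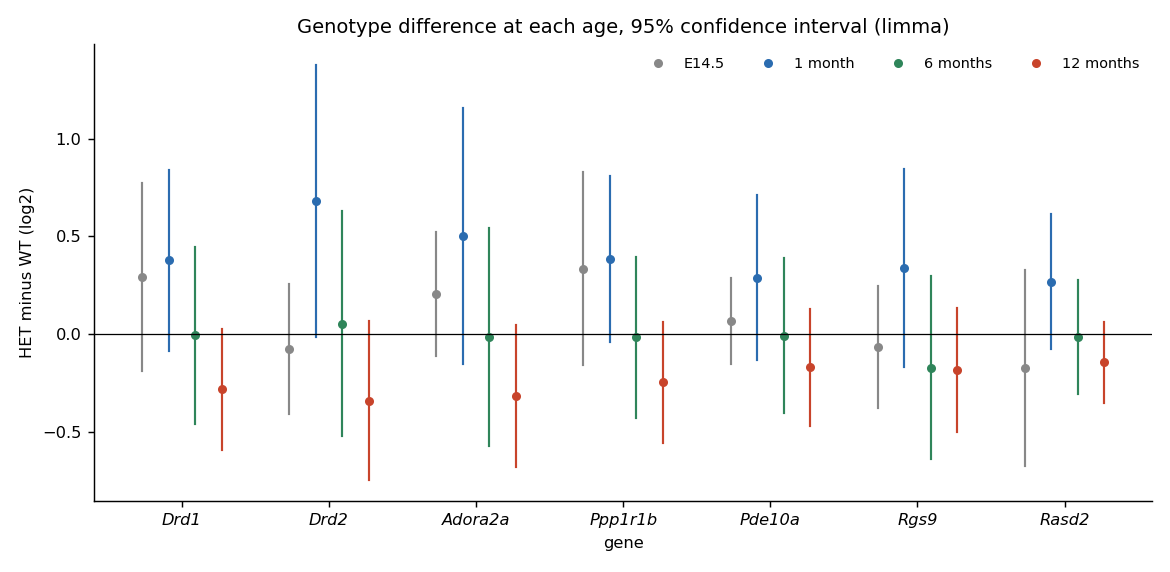
Difference between Chd8 V986*/+ and WT mice (log2, HET minus WT) for each of the 7 genes at 4 ages, points with 95% confidence intervals from limma, 6 mice per group. At 1 month all 7 points are above 0 and at 12 months all 7 are below 0, and every interval includes 0.

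The change of the genotype difference with age was tested itself. Between 1 and 12 months, it was negative for all 7 members, with a median of -0.63, beside +0.01 over all genes. It was -1.02 ± 0.41 (SE) for Drd2, with a limma p of 0.0166 and an adjusted p of 0.34. For Adora2a it was -0.82 ± 0.39, with a p of 0.0413 and an adjusted p of 0.433 by limma. These were the 2 members with an unadjusted p below 0.05, which 11.1% of all genes also had, and 0 of 7 members were called, beside 0.00578% of all genes. For 12 months against E14.5 and against 6 months, 0 of 7 were called and 0 had a p below 0.05 by limma, beside 0.0635% and 0.0578% of all genes called. With the replicate number as a block, 141, 254 and 29 genes were called for the change from 1 month, E14.5 and 6 months to 12 months, in place of 1, 11 and 10, and still 0 of 7 members. The 3 contrasts share the mice of 12 months. At 1 month, the difference also depended on which replicates were compared. Among replicates 1 to 3 it lay between +0.51 and +1.195 over the 7 members, and among replicates 4 to 6 between -0.07 and +0.17. At 12 months, the ranges were -0.44 to -0.22 and -0.25 to -0.01. At 6 months, they had opposite signs, -0.44 to -0.12 among replicates 1 to 3 and +0.09 to +0.29 among replicates 4 to 6. At E14.5, they were -0.15 to +0.43 and -0.20 to +0.35. The labels do not say what separates these replicates, but every gene of the table has equal means in both sets; the authors describe a correction for batch and do not name the batch.

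In most groups, mice of 1 genotype and age differed more in these genes than in the median gene. In WT mice of 1 month, the SD between mice of Drd2 was 0.96, and the median SD of the 7 members was 0.62, beside 0.13 over all genes tested. In this group, 5 of 7 members exceeded 95% of all genes in SD, and in WT mice of 6 months also 5 of 7, with a median SD of 0.56. In Chd8 V986*/+ mice, the median SD of the members was 0.35 in the group of 1 month, 0.36 in that of 6 months and 0.42 in that of 12 months. The order of the genotypes turned at 12 months, when the median SD was 0.20 in WT, near the 0.18 of all genes. Whether the spread differs between the genotypes was not tested.

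The members rose and fell together from mouse to mouse after birth. In WT mice of 1 month, replicate 3 had the lowest value and replicate 5 the highest value in 7 of 7 members. Their mean deviations from the group were -0.91 and +0.86 (log2). Among WT mice of 6 months, replicate 3 was lowest and replicate 2 highest in 7 of 7, with mean deviations of -0.78 and +0.60. Replicate 3 was also lowest in 7 of 7 members among mutant mice of 6 months and in 6 of 7 among those of 12 months. This was not so in every group: among mutant mice of 1 month, replicate 3 was in the highest 2 in 7 of 7, with a mean deviation of +0.32, and among WT mice of 12 months it was lowest in 1 of 7. The labels do not say whether mice of different groups with the same number are related. Counted over all 36 postnatal mice, 33 had all 7 members on 1 side of their group means, 17 above and 16 below. Among the 12 embryos, 3 did.

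**Figure D3:**
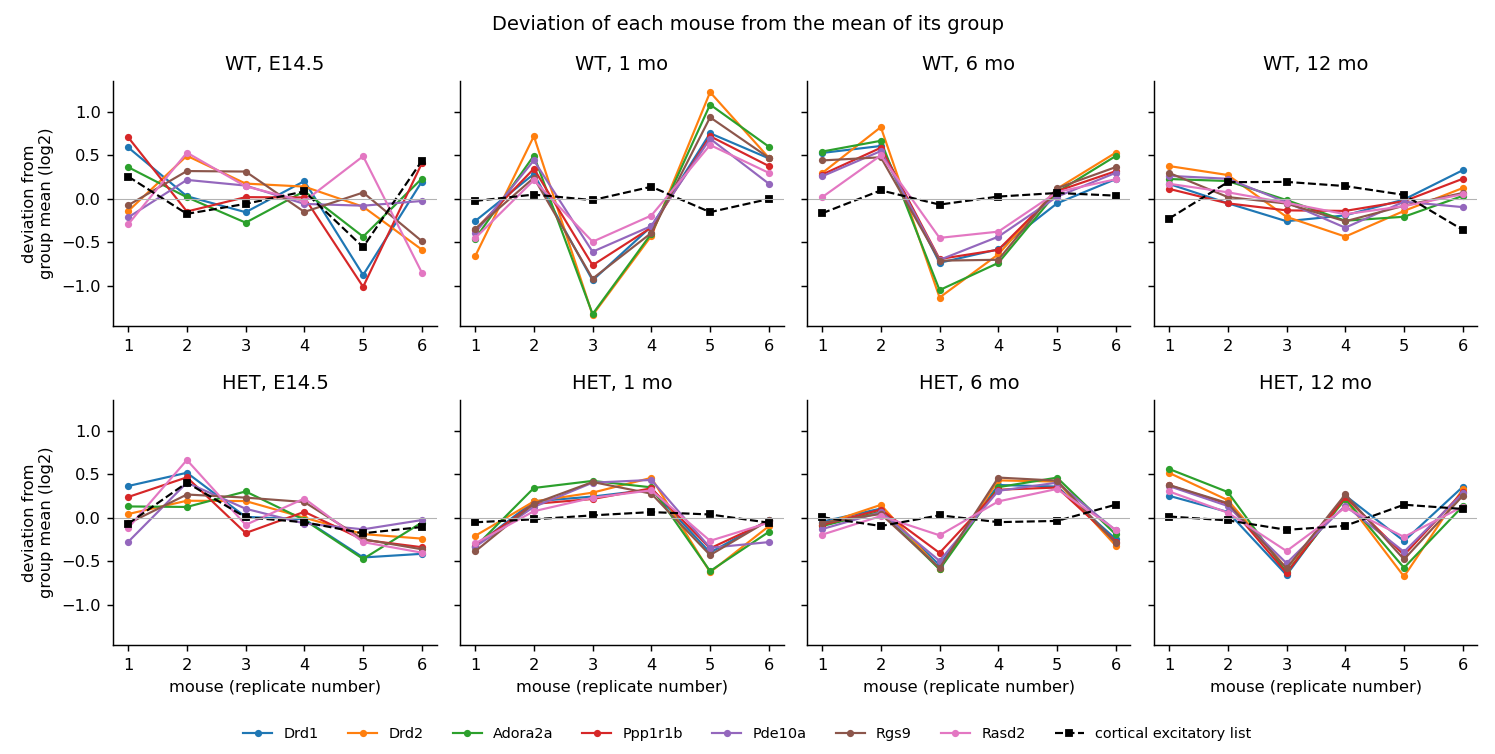
Deviation of each mouse from the mean of its group (log2) for the 7 genes, in colors, and for the summed level of 9 cortical excitatory neuron markers, as a dashed black line, in WT (top) and Chd8 V986*/+ (bottom, HET) mice by replicate number at 4 ages. The 7 lines run together in the 6 postnatal groups, from -0.91 on average in WT replicate 3 to +0.86 in WT replicate 5 of 1 month, while the dashed line does not follow them. Among the postnatal groups, the median r between the genes is lowest in WT mice of 12 months, at 0.821. The lines separate in WT embryos more than in mutant embryos.

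The strength of this relation was measured with the group means removed, over 36 postnatal mice and 21 pairs of members. All 21 pairs were positive, with Pearson's r from 0.912 (Drd1 and Rasd2) to 0.978 (Drd1 and Ppp1r1b) and a median of 0.951. Spearman's rho ranged from 0.879 to 0.97. The permutation p of each pair was 1e-05 for both measures, which is the smallest that 100000 shuffles of mice within their groups can give, and 1e-05 after Benjamini-Hochberg adjustment over the 21 pairs. Without the 2 mice farthest from the median of the first gene, r ranged from 0.895 to 0.974. Within replicates 1 to 3, the median r of the pairs was 0.969, and within replicates 4 to 6 it was 0.981, with 18 mice in each. Of the 6 groups alone, 5 had a median r between 0.957 and 0.98. WT mice of 12 months, which varied least, had a median of 0.821 and a lowest r of 0.301.

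Drd1 and Drd2, which mark different neurons of the striatum, had 1 of the 3 lowest r values of the 21 pairs and were still closely related, with r = 0.94 and rho = 0.901 (permutation p = 1e-05 for each, n = 36). Their difference within a mouse varied less than either gene in 5 of the 6 postnatal groups. In mutant mice of 6 months, Drd1 minus Drd2 had an SD of 0.06 over 6 mice, beside 0.36 for Drd1 and 0.41 for Drd2. In WT mice of 1 month, the SD was 0.39 for the difference, 0.62 for Drd1 and 0.96 for Drd2, since Drd2 moved further than Drd1 in the same mice. The exception was WT at 12 months, where the SD of the difference, 0.23, was above the 0.22 of Drd1 and below the 0.31 of Drd2. By r, the member closest to Drd2 was Adora2a, with r = 0.976 and rho = 0.962 (permutation p = 1e-05 for each).

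In the embryos, the relations are given for each genotype first. In Chd8 V986*/+ embryos, 21 of 21 pairs were positive, with r from 0.359 to 0.941 and a median of 0.683. In WT embryos, 9 of 21 were positive, with r from -0.74 to 0.955 and a median of -0.232. Each genotype has 6 embryos, and the difference between them was not tested. Over the 21 pairs in all 12 embryos, r ranged from -0.283 to 0.934 with a median of 0.101, and 6 pairs had an adjusted permutation p below 0.05 for r. Of these 6, 3 joined Drd1, Adora2a and Ppp1r1b. Drd1 and Ppp1r1b had r = 0.934 and rho = 0.853 (permutation p = 7e-05 and 0.00155, adjusted 0.00147 and 0.013; without the 2 farthest embryos, r = 0.848). Drd1 and Adora2a had r = 0.829 and rho = 0.832 (permutation p = 0.00084 and 0.00231, adjusted 0.00651 and 0.013; without the 2 farthest embryos, r = 0.7). The remaining pair of this set did not pass for rho: Adora2a and Ppp1r1b had r = 0.718 and rho = 0.671 (permutation p = 0.0113 and 0.0256, adjusted 0.0397 and 0.0897; without the 2 farthest embryos, r = 0.52). The other 3 joined Drd2, Rgs9 and Rasd2. Drd2 and Rgs9 had r = 0.852 and rho = 0.888 (permutation p = 0.0012 and 0.00066, adjusted 0.00651 and 0.013; without the 2 farthest embryos, r = 0.762). Rgs9 and Rasd2 had r = 0.843 and rho = 0.832 (permutation p = 0.00124 and 0.00247, adjusted 0.00651 and 0.013; without the 2 farthest embryos, r = 0.697). Drd2 and Rasd2 had r = 0.782 and rho = 0.79 (permutation p = 0.00725 and 0.00553, adjusted 0.0304 and 0.0232; without the 2 farthest embryos, r = 0.528). Between Drd1 and Drd2, r was 0.155 and rho 0.273, with permutation p values of 0.679 and 0.415. This pooled r joins -0.115 in WT and 0.834 in mutant embryos, and that of Ppp1r1b and Rasd2, -0.283, joins -0.74 in WT and 0.855 in mutant embryos. The parting of both sets of genes is thus seen in the WT embryos. Pde10a did not pass with any other member. These shuffles treat the 12 embryos as independent, but WT and mutant embryos with the same number had related values, with a mean r over all genes of 0.232. When they were shuffled together, an exact test added after the values were seen, 4 of 21 pairs had an adjusted p below 0.05 for r and 0 for rho. The 4 were Drd1 with Ppp1r1b and with Adora2a, and Rgs9 with Drd2 and with Rasd2, each with an adjusted p of 0.0365 for r and 0.051 for rho. In each set of 3 replicates, with 6 embryos, the median r of the 21 pairs was -0.212 and -0.242. The difference between embryos and postnatal mice in these relations was not tested.

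**Figure D4:**
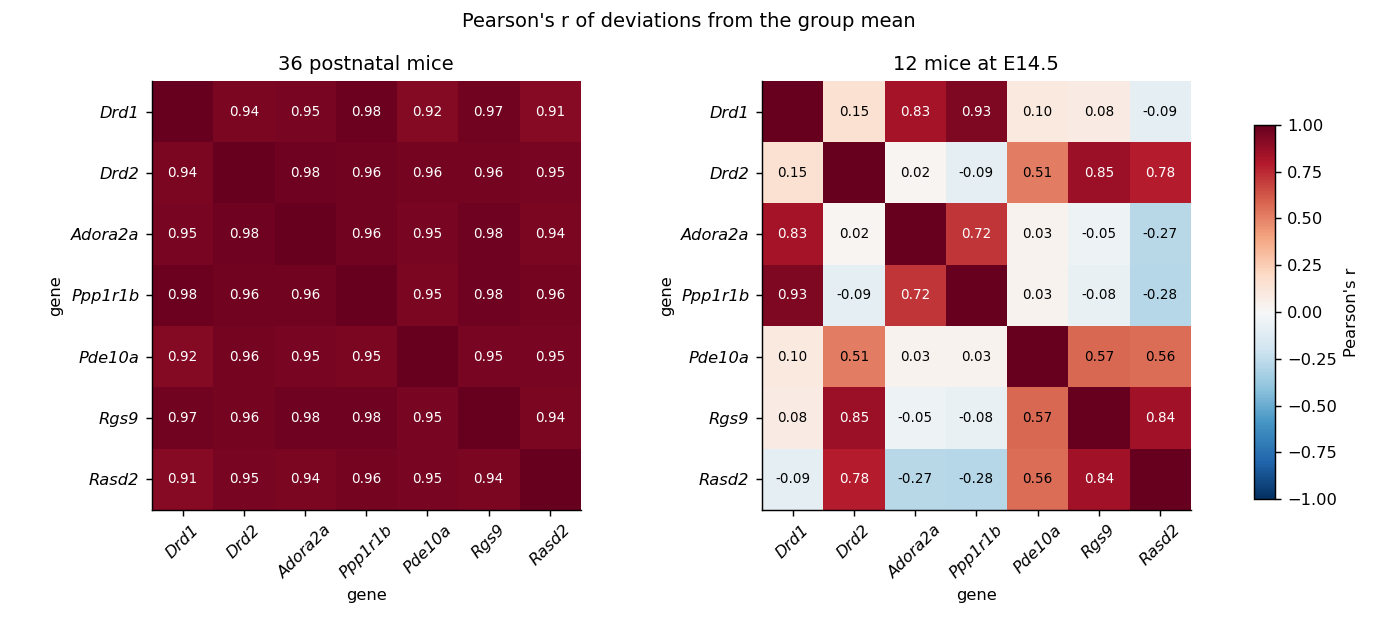
Pearson's r between the 7 genes over mice with group means removed, for 36 postnatal mice (left) and 12 embryos of E14.5 (right), with red for positive and blue for negative values. After birth, all 21 pairs lie between 0.912 and 0.978, and at E14.5 they lie between -0.283 and 0.934, with Drd1, Adora2a and Ppp1r1b apart from Drd2, Rgs9 and Rasd2. This parting is that of the WT embryos, and all 21 pairs are positive in mutant embryos alone.

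Other genes of the striatum moved with the members in the postnatal mice. Their lists were compared with Ppp1r1b and Drd2 through the summed level of each list in each mouse, 28 relations in each of both sets of mice, a comparison chosen after the values had been seen. The 13 other striatum-enriched genes followed Ppp1r1b with r = 0.977 and rho = 0.964 (permutation p = 1e-05 and 1e-05, adjusted 3.5e-05 and 3.11e-05; without the 2 farthest mice, r = 0.971). The 10 genes of striatal cAMP and G protein signalling had r = 0.949 and rho = 0.939 (permutation p = 1e-05 and 1e-05, adjusted 3.5e-05 and 3.11e-05; without the 2 farthest mice, r = 0.936). The 4 indirect pathway genes, led by Penk, which encodes the enkephalin precursor, had r = 0.92 and rho = 0.879 (permutation p = 1e-05 and 1e-05, adjusted 3.5e-05 and 3.11e-05; without the 2 farthest mice, r = 0.914). The 7 direct pathway genes, led by the muscarinic receptor gene Chrm4, had r = 0.832 and rho = 0.792 (permutation p = 1e-05 and 1e-05, adjusted 3.5e-05 and 3.11e-05; without the 2 farthest mice, r = 0.813). The 8 transcription factors of striatal projection neurons, led by Foxp1, several of which are also expressed in cortex, had r = 0.721 and rho = 0.733 (permutation p = 2e-05 and 2e-05, adjusted 5.6e-05 and 5.6e-05; without the 2 farthest mice, r = 0.7). Within replicates 1 to 3 and 4 to 6, r of the 5 lists, in this order, was 0.992 and 0.982, 0.983 and 0.962, 0.916 and 0.976, 0.84 and 0.838, and 0.73 and 0.822.

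Of the lists for other regions and cell types, the 6 markers of basal forebrain cholinergic neurons also moved with the members. Their relation with Ppp1r1b had r = 0.674 and rho = 0.688 (permutation p = 0.00021 and 9e-05, adjusted 0.00049 and 0.00021; without the 2 farthest mice, r = 0.68). The summed level of this list (log2 of the summed values) was low, 7.60 to 9.57 over 36 mice, its most abundant gene was the choline transporter Slc5a7, and none of its 6 genes was on average less than 0.5 above the floor of the table, 2.1433. Cholinergic interneurons are also found in the striatum. Markers of cortical excitatory neurons did not follow Ppp1r1b, with r = -0.166 and rho = -0.119 (permutation p = 0.262 and 0.484, adjusted 0.494 and 0.713; without the 2 farthest mice, r = -0.235). They held a summed level of 15.27 to 15.99 with Slc17a7 as the most abundant of 9 genes. Their r was 0.183 within replicates 1 to 3 and -0.538 within replicates 4 to 6, so the pooled value hides opposite signs.

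The remaining lists did not pass with either gene. The 6 oligodendrocyte markers, led by Mbp with a summed level of 16.65 to 17.92, had r = 0.207 and rho = 0.232 (permutation p = 0.252 and 0.192; without 2 mice, r = 0.314; within replicates 1 to 3 and 4 to 6, r = 0.226 and 0.178). The 5 choroid plexus markers varied most between mice, 9.12 to 14.08 with Ttr as the most abundant, and had r = 0.2 and rho = 0.242 (permutation p = 0.316 and 0.213; without 2 mice, r = 0.167; within replicates 1 to 3 and 4 to 6, r = 0.239 and 0.131). The 5 thalamus markers, led by Plekhg1 at 10.37 to 11.29, had r = 0.0686 and rho = -0.0324 (permutation p = 0.725 and 0.849; without 2 mice, r = 0.116; within replicates 1 to 3 and 4 to 6, r = 0.118 and 0.101). None of the genes of these 3 lists was that near the floor. The 5 dentate gyrus markers, led by Prox1 at 9.01 to 11.01, had r = -0.213 and rho = -0.184 (permutation p = 0.268 and 0.345; without 2 mice, r = -0.252; within replicates 1 to 3 and 4 to 6, r = -0.0715 and -0.321). The 5 midbrain dopamine neuron markers, led by Aldh1a1 at 9.96 to 10.89, had r = -0.00324 and rho = 0.0327 (permutation p = 0.985 and 0.853; without 2 mice, r = 0.0254; within replicates 1 to 3 and 4 to 6, r = -0.501 and 0.387), and their defining transcription factor Pitx3 was less than 0.5 above the floor on average. Of the 9 markers of midbrain, hindbrain and spinal cord, those less than 0.5 above the floor on average included En1, Hoxb2, Hoxb3 and Hoxa5, the summed level was 7.24 to 8.10 with Gata2 leading, and the list had r = -0.163 and rho = -0.123 (permutation p = 0.366 and 0.509; without 2 mice, r = -0.248; within replicates 1 to 3 and 4 to 6, r = -0.123 and -0.00844). The 6 relatives of the receptors among the members, led by the adenosine A1 receptor gene Adora1 at 12.62 to 13.17, had r = -0.0879 and rho = -0.0299 (permutation p = 0.64 and 0.863; without 2 mice, r = -0.103; within replicates 1 to 3 and 4 to 6, r = 0.0817 and -0.657). Adjusted p values of these lists and of the cortical markers with either gene were between 0.414 and 0.985. How much striatal tissue or other cells each dissected sample held is not given in the sources used here, and the part of these cell types in the result was not tested.

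**Figure D5:**
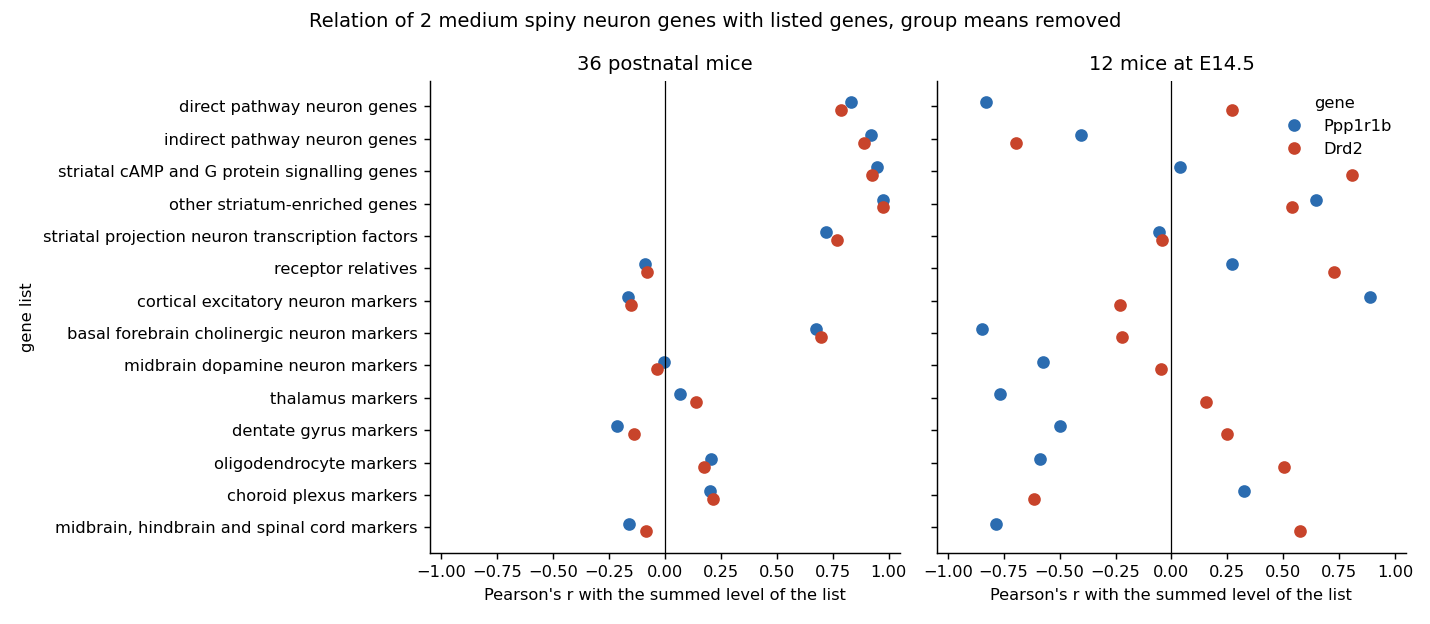
Pearson's r of Ppp1r1b (blue) and Drd2 (red) with the summed level of each of 14 gene lists over 36 postnatal mice (left) and 12 embryos (right), group means removed. After birth, the 5 striatal lists lie at 0.721 or above for both genes and cholinergic markers near 0.674, whereas at E14.5 the pooled values of both genes differ, with cortical excitatory markers at 0.89 for Ppp1r1b and -0.229 for Drd2.

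In the embryos, the list with the highest r with Ppp1r1b was that of cortical excitatory neurons. Cortical excitatory markers, led by Neurod6 at a summed level of 14.04 to 15.31, had r = 0.89 and rho = 0.79 (permutation p = 0.00104 and 0.00413, adjusted 0.0143 and 0.0289; without the 2 farthest mice, r = 0.822) over 12 embryos. The summed level of the direct pathway genes, led by Ebf1 at 11.51 to 12.14, ran against Ppp1r1b with r = -0.83 and rho = -0.825 (permutation p = 0.00153 and 0.00147, adjusted 0.0143 and 0.0206; without the 2 farthest mice, r = -0.695). A summed level follows the most abundant genes and does not stand for each gene of the list. Drd1, the direct pathway gene among the members, had r = 0.934 with Ppp1r1b in the same embryos. Thalamus markers, led by Tcf7l2 at 12.76 to 13.66, had r = -0.765 and rho = -0.762 (permutation p = 0.00669 and 0.00896, adjusted 0.0312 and 0.0502; without the 2 farthest mice, r = -0.612). Cholinergic markers, led by Ngfr at 9.71 to 10.9996, had r = -0.848 and rho = -0.72 (permutation p = 0.00597 and 0.0129, adjusted 0.0312 and 0.0516; without the 2 farthest mice, r = -0.478). Markers of midbrain, hindbrain and spinal cord, led by Gata3, had r = -0.786 and rho = -0.692 (permutation p = 0.00823 and 0.0196, adjusted 0.0329 and 0.0686; without the 2 farthest mice, r = -0.726), and their summed level ranged widely, 8.53 to 11.98. For the last 3 lists, the adjusted p of rho was above 0.05. The other striatum-enriched genes were also positive but did not pass, with r = 0.649 and rho = 0.741 (permutation p = 0.0329 and 0.011, adjusted 0.0921 and 0.0513; without the 2 farthest mice, r = 0.378), and their r was 0.535 in WT and 0.956 in mutant embryos. Within replicates 1 to 3 and 4 to 6, with 6 embryos each, r of the 5 lists that passed kept its sign: 0.827 and 0.973, -0.817 and -0.955, -0.688 and -0.857, -0.678 and -0.939, and -0.959 and -0.833. It also kept its sign within each genotype: cortical excitatory markers had 0.93 in WT and 0.769 in mutant embryos, and direct pathway genes had -0.869 in WT and -0.706 in mutant embryos. Thalamus markers had -0.909 in WT and -0.522 in mutant embryos, cholinergic markers -0.863 in WT and -0.816 in mutant embryos, and the last list -0.823 in WT and -0.659 in mutant embryos.

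Drd2 in the embryos followed the striatal cAMP and G protein signalling genes, led by the cannabinoid receptor gene Cnr1, with r = 0.809 and rho = 0.902 (permutation p = 0.00051 and 0.00038, adjusted 0.0143 and 0.0106; without the 2 farthest mice, r = 0.786). The relatives of the receptors, led by Adora1, had r = 0.725 and rho = 0.804 (permutation p = 0.00262 and 0.00413, adjusted 0.0183 and 0.0289; without the 2 farthest mice, r = 0.666). With cortical excitatory markers, it had r = -0.229 and rho = 0.028 (permutation p = 0.586 and 0.942, adjusted 0.714 and 0.943; without the 2 farthest mice, r = 0.403). This last value joins -0.513 in WT and 0.715 in mutant embryos, whereas r with the signalling genes was 0.916 in WT and 0.849 in mutant embryos. WT replicate 5 of E14.5 shows the parting of the members in that group. It had the lowest Drd1, Ppp1r1b and Adora2a of the WT embryos, at 6.17, 7.25 and 7.06, while its Rasd2 was above the group mean by 0.49. WT replicate 6 had the lowest Drd2, Rgs9 and Rasd2, at 5.75, 8.10 and 5.06. When embryos with the same number were shuffled together, 4 of the 28 relations of the embryos had an adjusted exact p below 0.05 for r, and 0 for rho. They were those of Ppp1r1b with direct pathway genes (0.0194), with cortical excitatory markers (0.0389) and with the midbrain, hindbrain and spinal cord list (0.0389), and that of Drd2 with the signalling genes (0.0194). The part of tissue of other regions in these values was not tested.

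To find the genes most like the members, each gene's r with the 7 members over the 36 postnatal mice was averaged, with group means removed, for 17250 other genes. The median of this likeness was -0.01. It exceeded 0.5 in 215 genes (1.25%) and 0.9 in 11 (0.0638%), while each member had 0.942 or more with the other 6. Among the highest were Syndig1l (0.952), Pde1b (0.948), a phosphodiesterase of dopamine-receptive neurons, and Scn4b (0.93), a sodium channel beta subunit. They were followed by Cd4 (0.928), Sh3rf2 (0.927), the retinoid X receptor gene Rxrg (0.924), Tbc1d8 (0.923), the receptor gene Gpr6 (0.913) and the retinoic acid receptor gene Rarb (0.911). Of these 9, 7 were on the striatal lists and Cd4 and Tbc1d8 were not.

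Of the listed genes, likeness exceeded 0.5 in 12 of 13 other striatum-enriched genes, 7 of 10 cAMP and G protein signalling genes, 3 of 4 indirect and 4 of 7 direct pathway genes, 5 of 8 striatal transcription factors and 5 of 6 cholinergic markers. It did so in 0 of 9 cortical excitatory markers and in 0 genes of the other 7 lists. Among the relatives of the receptors, the highest likeness was 0.287, that of the D3 receptor gene Drd3. At the low end of all genes stood Akr1c18, a steroid dehydrogenase, at -0.653, the immune receptor gene Cd48 at -0.62 and 4921511I17Rik at -0.577. Slc44a3 and the neuronal transcription factor gene Neurod1 followed, at -0.566 and -0.566.

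No listed gene passed the test for genotype. Of the 14 lists, 0 genes were called in either direction by limma at any age. An unadjusted p below 0.05 was found for 14 of 95 genes tested in embryos, 12 of 92 in mice of 1 month, 7 of 92 in those of 6 months and 15 of 93 at 12 months. Among all genes, this share was 4.56%, 8.8%, 7.59% and 11.6%. The share of listed genes was above that of all genes at 3 ages and about equal to it at 6 months, and the difference between these shares was not tested. The lists were chosen with earlier results of these data known, and many of their genes vary together between mice. These counts are therefore not separate observations. The genes named here are among the 2 with the largest difference of each list over the 4 ages. In the striatal lists, those found at E14.5 were -0.62 for Penk (adjusted p = 0.881 by limma), -0.49 for Slc35d3 and -0.24 for Foxp2. At 1 month they were +0.62 for Sh3rf2, +0.55 for Lrrc10b, +0.28 for Gng7 and +0.23 for Rasgrp2. At 12 months they were -0.39 for Gpr6, -0.33 for Isl1 and +0.58 for Gsx2. None of these passed the test.

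In the other lists, those found at E14.5 included -2.17 for En2, +0.43 for Mag, -0.40 for Pitx3, +0.38 for Neurod6, +0.37 for Neurod2 and -0.34 for Lef1. At 1 month they were +1.49 for Ttr, +0.83 for Folr1, -0.42 for Drd3 and -0.26 for Tcf7l2. At 12 months they were -1.11 for Dsp, +0.87 for Th, -0.77 for Lct, +0.48 for Ngfr, +0.41 for Adora2b and -0.27 for Mobp, with limma adjusted p values of 0.223 for Dsp and 0.208 for Adora2b. None of these passed the test either.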

How the data were processed

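PolyA RNA of 48 samples, 6 in each of 8 groups of genotype and age, was sequenced in stranded paired reads. Per the submitters' processing notes and the methods of the study, the authors aligned reads to mm9 with STAR 2.5.2b, quantified transcripts with Salmon 0.11.3 and used DESeq2 (tag DESeq 1.22.2) with a model correcting for an unnamed batch. As deposited, values are VST expression on a log2 scale made by the authors, 24444 genes by 48 samples. The floor of the table was taken as its most frequent value, 2.1433 (15.7% of values, with 6.06% below it). Replicates 1 to 3 and 4 to 6 had the same mean in each gene, with a largest difference of 3.38e-14. Read depth is not in the table, so no counting intervals were computed.

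Samples were grouped by their labels. Genotypes at each age, age steps within each genotype and changes of the genotype difference were tested with limma 3.58.1 (intensity trend) in R 4.3.3, over genes at least 0.5 above the floor on average in the samples of the fit, and called at a Benjamini-Hochberg adjusted p below 0.1. The fit was tested on simulated data. Single genes were compared with exact permutation tests. Relations across mice used deviations from group means and 100000 shuffles within groups. The summed level of a list is the log2 of the sum of its genes' values on a linear scale.

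The members and lists were chosen with earlier results of these data known. Genes named in the text are the 7 members, Chd8, of each list the up to 3 called genes or otherwise the 2 with the largest genotype difference over the 4 ages, the most abundant gene of each list, list genes less than 0.5 above the floor on average, the receptor relative with the highest likeness, and the 10 genes with the highest and 5 with the lowest likeness to the members; not every gene that meets this rule is named. Sequences are from RefSeq (GRCm38.p6). Alternatives were a replicate block, 1 fit of all 48 samples, other filters, no trend, robust variances, quantile normalization, centring on the median gene, an adjusted p below 0.05 and leaving out each mouse. Mice were not left out for the changes of the genotype difference. Chosen after seeing the data were the comparison of 12 with 1 months, exact tests at E14.5 with same-numbered embryos shuffled together, replicates 1 to 3 or 4 to 6 as a covariate and, for the relations, each of these sets or each genotype alone. Other versions: matplotlib 3.10.9, scipy 1.17.1, Python 3.11.15 with pandas 2.3.3 and numpy 2.4.6.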

Additional observations from a re-analysis of the deposited data

Results flagged for a closer look

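Each group of 6 mice was searched for a mouse far from the other 5, by the gap to the nearest mouse as a share of the range of the group, for the 7 members and Chd8 in 8 groups. No group of any member held such a mouse. For Chd8, 3 groups did. In Chd8 V986*/+ embryos, replicate 1 was lowest at 11.60, with the next at 11.90, a gap of 0.693 of the range. In WT mice of 12 months, replicate 6 was lowest at 11.36, with the next at 11.63 and a gap of 0.631. In mutant mice of 12 months, replicate 6 was highest at 11.17, with the next at 11.11 and a gap of 0.641. Chance flags about 1 in 20 groups, and 64 groups were searched. All 3 flags fell in the 8 groups of Chd8. Because the members vary together in the same mice, their groups are not separate searches, and the flags were not tested against that rate. The genotypes of Chd8 did not overlap in any case.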

How the results depend on the processing

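The count of members called was the same under every alternative that was run in 13 comparisons: 7 of 7 in both steps from E14.5 to 1 month and 0 of 7 in the other 11. Mice were left out for the genotype differences and the age steps, but not for the changes of the genotype difference. The count was not the same in the comparison of 12 and 1 months in WT mice, added after the results were seen, where 5 of 7 were called. There, 6 were called with a replicate block, 6 in 1 fit of all 48 samples, 6 after quantile normalization, 4 with the set of replicates as a covariate and 1 to 7 without 1 mouse, and the median change lay between +0.46 and +0.80. A tally was made of 1744 repeated values, in the 13 comparisons and part of the relations. Of these, 1689 kept their direction and their side of the threshold and 55 changed sign. Of the 55, 54 did so when 1 mouse was left out. For the differences between groups, many settings of the tally could not change the direction. With equal groups, the block, the covariate, the joint fit, the filters, the trend and robust variances change p values but not differences of group means. The stricter threshold reused the main fit. Only leaving out mice, quantile normalization and centring could turn a sign. All sign changes of the tally were in differences that passed no test in any setting. The tally leaves out single relations repeated within 1 genotype or 1 set of replicates, or with same-numbered embryos shuffled together. Some of those changed sign or lost their call, as given in the Results. Over the alternatives that were run, the adjusted p of the members was at least 0.425 for genotype at 1 month and 0.324 at 12 months (limma). It was at least 0.234 for the change between 1 and 12 months (limma), for which no mouse was left out. In these fits, the genotype differences at 1 month lay between +0.16 and +0.93, and those at 12 months between -0.44 and -0.07. Compared within each set of 3 replicates, which was no refit, they ranged more widely, from -0.07 to +1.195 and from -0.44 to -0.01.

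When each mouse was left out in turn, the genotype difference at E14.5 ranged from -0.19 to 0.0233 for Drd2, -0.16 to 0.00498 for Rgs9 and -0.0124 to 0.12 for Pde10a. At 6 months it ranged from -0.15 to 0.11 for Drd1, -0.17 to 0.22 for Drd2, -0.22 to 0.12 for Adora2a, -0.16 to 0.0996 for Ppp1r1b, -0.15 to 0.10 for Pde10a and -0.10 to 0.085 for Rasd2. In mutant mice, the step from 1 to 6 months ranged from -0.10 to 0.0876 for Drd1, -0.22 to 0.0269 for Drd2 and -0.0647 to 0.0642 for Rasd2, and that from 6 to 12 months from -0.0198 to 0.22 for Drd1, -0.0207 to 0.18 for Pde10a and -0.00681 to 0.13 for Rasd2. With samples centred on their median gene, the step of Rasd2 from 1 to 6 months in mutant mice was -0.0018 in place of 0.0013. The cause of these sign changes was not tested.

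The labels do not say whether WT and mutant samples with the same number are related. The correlation of their deviations over all genes was 0.232 on average at E14.5, with 4 of 6 pairs over 0.1 and a mean of -0.0453 for other pairs, and 0.0182, 0.0451 and -0.0342 at 1, 6 and 12 months. With the number as a replicate block, 0 of 7 members were called for genotype. The difference of Drd2 stayed at +0.68 at 1 month and -0.34 at 12 months, which a block cannot change in groups of equal size. The block moved the genes called for genotype from 1 to 2 at E14.5, 24 to 13 at 1 month, 16 to 30 at 6 months and 8 to 2 at 12 months. It moved those called for the change of the genotype difference to 12 months from 11 to 254 (since E14.5), 1 to 141 (since 1 month) and 10 to 29 (since 6 months), and those called between 6 and 12 months in WT from 2 to 0. In 1 fit of all 48 samples, 93, 37 and 520 genes were called for genotype at E14.5, 1 and 12 months, and 7 in WT and 100 in mutant mice between 6 and 12 months, in place of 2 and 325.

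The median r of the 21 pairs in postnatal mice was 0.951 and lay between 0.946 and 0.981 with samples centred on their median gene, at each postnatal age alone, in each genotype alone and in each set of replicates alone. Read depth is not in the table. The paper lists it in its supplement, which was not used here, so what read depth limits was not examined.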
